A study of Mus musculus with 12 samples.

Results

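Layer 5-type neurons marked by Fezf2 and Bcl11b were examined in single-nucleus RNA sequencing of the mouse forebrain at postnatal day 1 (P1). Nuclei were chosen on their raw UMIs (unique molecular identifiers, tags that mark each captured RNA molecule). A member held at least 1 UMI of Fezf2, at least 2 of Bcl11b and at least 1 of Ldb2 and Crym together. It also held at most 1 UMI of Hs3st4, 0 of Gad1 and Gad2, and at most 1 of Nxph4, Moxd1 and Cplx3 together. These conditions held for 179 of 101802 nuclei that had 800 to 6000 UMIs, 300 to 3000 genes and at most 1% mitochondrial UMIs. Members thus made up 0.176% of all these nuclei and 0.412% of the 43398 cortical excitatory nuclei among them, with 124 members from WT and 55 from Het animals. All members were counted as cortical excitatory, though only 119 of the 179 held the 2 UMIs of excitatory markers asked of the other nuclei.

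The study asked how a frameshift allele of Myt1l (MYT1L S710fsX), a gene for a zinc finger transcription factor of neurons, affects the developing forebrain. The 8 wild-type (WT) and 4 heterozygous (Het) mice came from the same line, bred with C57BL/6J mice. Each library was made from 1 animal and is named here by genotype, sex and replicate number, so that WT M1 to M5 and Het M1 to M3 are male, and WT F1 to F3 and Het F1 female. The tissue was forebrain according to the labels, while 1 place in the study's methods names the prefrontal cortex, so its extent is uncertain. The allele is constitutive, so every cell of a Het animal carries it, and Het F1 is the only female Het animal.

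Fezf2 and Bcl11b (also called Ctip2) encode transcription factors of layer 5 neurons that send axons out of the cortex to the brainstem and spinal cord. Fezf2 specifies this fate and Bcl11b acts downstream in the growth and bundling of these axons. Around birth these axons are still extending, and layer 6 corticothalamic neurons, which share Fezf2 and part of the program, are distinguished by genes such as Tle4, Foxp2 and Hs3st4.

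Most members stood at the edge of the Fezf2 condition. A single Fezf2 UMI had brought in 162 of the 179 members, and 78 had the minimum of 2 Bcl11b UMIs. Ldb2 (a LIM domain binding protein) met its condition without Crym (a thyroid hormone binding protein) in 152 members and together with it in 27, and Crym alone in 0. Just outside, 2374 nuclei met every other condition but held no Fezf2 UMI, 199 held more than 1 Hs3st4 UMI, 122 held 1 Bcl11b UMI, 28 held a Gad1 or Gad2 UMI and 14 held neither Ldb2 nor Crym. The members per library numbered 7 to 26 in WT, lowest in M3 and highest in F2, and 14, 16, 10 and 15 in Het M1, M2, M3 and F1.

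Members were deeper than other nuclei. Their median UMI count per library ran from 3897 to 4973 (median of 4529 over WT and 4368 over Het libraries), against 2106 to 2833 in cortical excitatory nuclei as a whole. Nuclei over 3000 UMIs made up 69.2% to 92.3% of members in WT libraries, with a median of 82.1%. In the Het libraries they made up 86.7% to 100%, the only 1 of 5 depth and quality measures of members with an exact permutation p under 0.05 (two-sided, p = 0.0242, not adjusted). Cortical excitatory nuclei as a whole were shallower in Het, with a median of 2321.5 UMIs against 2628 over WT libraries. Their share over 3000 UMIs had a median of 32.6% in Het and 40.4% in WT libraries, with overlapping ranges. Shares of members at equal depth are given below. The summed UMIs of members ranged from 25721 to 109403 per library, and this small sum limits every gene test that uses members. Whole libraries held 15439429 to 40784144 UMIs over 126684 barcodes in all, and shared 0 barcodes with each other. Which animals were littermates is not given in the labels.

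Layer 5-type members carried a program that the conditions had not named. Levels are given as CPM, a gene's UMIs per 1000000 UMIs summed over the members of a population in a library. Ratios here compare the mean level over 12 libraries with that in other cortical excitatory nuclei. They describe the members and were not tested, since members had been chosen on these counts. Of the 4 genes with a minimum in the conditions, Fezf2 stood at 23.7 times the level in other cortical excitatory nuclei, Crym at 12.8, Bcl11b at 7.43 and Ldb2 at 2.40 times. Outside them the highest ratio was that of Tcerg1l, a gene related to a transcription elongation regulator, at 501 ± 143 CPM (SD, n = 12) in members against 33.4 ± 10.2 (SD, n = 12) in other cortical excitatory nuclei, or 15.0 times. Lgr5, a receptor for R-spondins in Wnt signaling, followed at 13.9 times.

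Further down the order came Postn, an extracellular matrix protein, at 10.4 times, the membrane protein gene Mctp2 at 9.43 and the natriuretic peptide receptor gene Npr3 at 9.40 times. Pex5l stood at 1252 ± 222 CPM (SD, n = 12) against 139 ± 24.5, or 9.02 times. Tcerg1l, Mctp2, Npr3, Pex5l and Iqcj (8.42 times) were higher in members in 12 of 12 libraries. Lgr5, Postn and Panct2 (7.48 times) were low, at 20 to 36 UMIs over all members. Gm19445 (11.5 times) and 4930419G24Rik (10.1 times) overlap Pex5l in the annotation, and Iqcj overlaps another gene on its strand, so UMIs of these genes are uncertain.

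**Figure D1:**
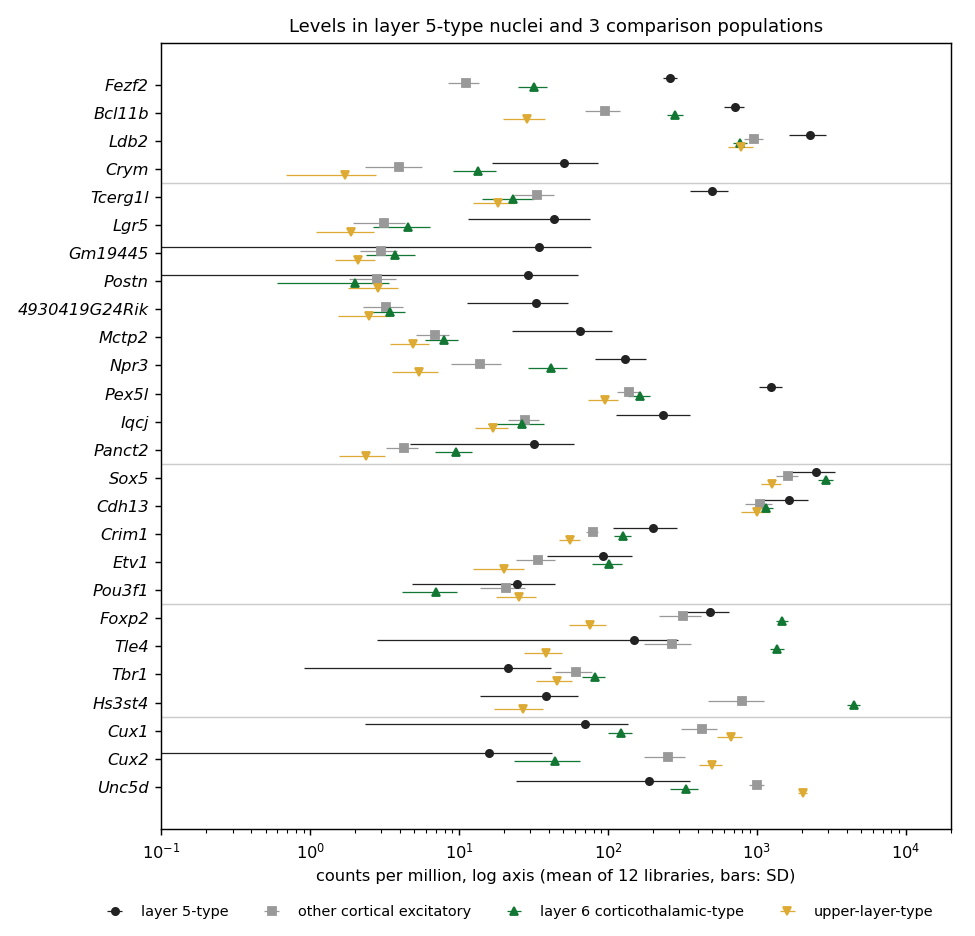
Mean level in CPM on a log axis, over 12 libraries with bars of 1 SD, of condition genes, the 10 genes with the highest ratio and layer markers, in layer 5-type nuclei and 3 comparison populations. Bars that reach below the axis are cut at its left edge, and a population at 0 is not drawn (Fezf2 in upper-layer-type nuclei). Upper-layer-type nuclei were chosen to hold no UMI of Fezf2 and at most 1 each of Bcl11b and Hs3st4, so their low levels were set in advance. Tcerg1l and Pex5l stand apart in layer 5-type nuclei, Hs3st4, Tle4 and Foxp2 are highest in layer 6 corticothalamic-type nuclei, and Cux2 and Unc5d in upper-layer-type nuclei, which were chosen on these genes.

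Most genes of the layer 5 subcerebral list, which holds none of the condition genes, were higher in members than in other cortical excitatory nuclei. Of its 26 genes 20 exceeded their level there, against 1 of 19 callosal and upper-layer genes and 8 of 16 layer 6 corticothalamic genes. These nuclei include upper-layer-type nuclei, and no such count is given against layer 6 corticothalamic-type nuclei alone. Crim1, a gene of corticospinal neurons, stood at 2.53 times, the netrin-family gene Ntng1 at 6.22 and the contactin gene Cntn6 at 5.38 times. The upper-layer genes Cux2 and Cux1 stood at 0.0629 and 0.163 times, and the netrin receptor gene Unc5d at 0.189 times. Against layer 6 corticothalamic-type nuclei, which were also low in them, Cux2, Cux1 and Unc5d stood at 0.361, 0.569 and 0.568 times.

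Some layer 5 markers separated the members from only part of the other nuclei. Etv1, a layer 5 factor, stood at 92.2 ± 53.3 CPM (SD, n = 12) in members, 2.72 times its level in other cortical excitatory nuclei, and at 102 CPM in layer 6 corticothalamic-type nuclei. Pou3f1, a factor of subcerebral neurons, was higher than in other cortical excitatory nuclei in 5 of 12 libraries (1.18 times). In nuclei thinned to 1000 UMIs, Sox5 was seen in 75.8% of members and 80.5% of layer 6 corticothalamic-type nuclei. These shares were 56.2% and 59.5% for Cdh13 and 3.93% and 7.14% for Etv1. They went the other way for Crim1, at 16.9% and 9.98%, and for Pou3f1, at 1.69% and 0.590%. The label is therefore used with the word type.

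Axon guidance genes stood both above and below their level in other cortical excitatory nuclei. Robo1, a receptor for Slit repellents, stood at 5238 ± 923 CPM (SD, n = 12) or 2.95 times, Efna5 and Ephb1 of the ephrin system at 3.43 and 3.42 times, and Sema3e at 3.95 times. Plxna4, a semaphorin coreceptor, stood at 0.207 times, Unc5c at 0.242 and Dcc, a netrin receptor, at 0.320 times. Of the 37 genes of the list, 18 were higher in members. Among glutamate receptors and channels, Grik2 stood at 3.13 times and the calcium channel subunit gene Cacna2d3 at 2.99 times, while Kcnip4 stood at 0.333 times.

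Markers of other cell types were at or near 0 in part. Of the 16 striatal projection neuron markers, 12 had UMIs in members, while Drd1, Adora2a, Penk and Tac1 were at 0 in all members. The summed level of the 16 markers was 1500 to 2925 CPM in WT. It was 1551, 1521, 1651 and 2258 CPM in Het M1, M2, M3 and F1. No UMI of Drd1, Drd2, Adora2a, Penk, Rgs9 or Isl1 was held by 144 of the 179 members. These were 98 of 124 WT and 46 of 55 Het members. The remaining members held a UMI of Drd2, Rgs9 or Isl1. The interneuron markers Dlx5, Dlx6os1 and Sst were at 0, and the 16 markers summed to 0 to 1592 CPM in WT and to 72.5, 122, 433 and 318 CPM in Het M1, M2, M3 and F1. Oligodendrocyte lineage, microglia, and endothelial and mural markers each summed to at most 115 CPM in any library, with Olig2, Cspg4, Cx3cr1, P2ry12, C1qa, C1qb, Ptprc, Cldn5, Kdr, Tek and Rgs5 at 0. Astroglia and radial glia markers summed to 77.8 to 536 CPM in WT and to 371, 216, 716 and 223 CPM in Het, with Hopx at 0. Cajal-Retzius markers summed to 69.2 to 207 CPM in WT and to 271, 144, 46.2 and 350 CPM in Het, with Lhx5 and Lhx1 at 0. Thalamic and other glutamatergic markers summed to 159 to 583 CPM in WT and to 537, 432, 485 and 350 CPM in Het, with Gbx2 at 0. Cycling progenitor markers stayed at or below 31.6 CPM apart from Het M3 at 139, with Eomes at 0. Layer 6b and subplate genes summed to 69.2 to 389 CPM in WT and to 371, 281, 69.3 and 572 CPM in Het. Other cortical excitatory nuclei summed per library to 2268 to 2677 CPM for striatal, 509 to 1181 for interneuron and 209 to 405 for astroglia markers. For the Cajal-Retzius, thalamic and layer 6b lists their sums were 77.4 to 197, 152 to 252 and 166 to 294 CPM. The part of the members' marker levels in the differences below was not tested.

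The first comparison asked whether Het animals held fewer layer 5-type neurons. Members made up 0.113% to 0.278% of all nuclei in WT, with a median of 0.212%, and 0.128%, 0.149%, 0.0851% and 0.170% in Het M1, M2, M3 and F1. All 4 Het libraries lay below the WT median, though the groups overlapped. WT averaged 0.211% ± 0.0565 (SD, n = 8) and Het 0.133% ± 0.0363 (SD, n = 4). The difference of -0.0783 percentage points (95% interval -0.144 to -0.00673) had a two-sided exact permutation p of 0.0364, and 0.182 after Benjamini-Hochberg adjustment over 5 shares and ratios, so it did not pass the test. Within 1 library the counting error was as wide as these differences: the 10 members of Het M3 gave a 95% Wilson interval of 0.0462% to 0.157% and the 15 of Het F1 0.103% to 0.280%. These intervals cover counting error only.

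Among cortical excitatory nuclei alone the shares overlapped more. They ran from 0.267% to 0.732% in WT, with a median of 0.491%, and stood at 0.278%, 0.360%, 0.198% and 0.482% in Het M1, M2, M3 and F1. The difference was -0.160 percentage points (95% interval -0.337 to 0.00968, exact permutation p = 0.0768, adjusted p = 0.192). With the 119 members that held excitatory markers it was -0.115 percentage points (exact permutation p = 0.137), and among all nuclei -0.0558 (exact permutation p = 0.0727). Against layer 6 corticothalamic-type nuclei, which met at least 2 UMIs of Hs3st4 and at least 1 of Tle4 and Foxp2, the log2 ratio averaged -5.85 ± 0.588 for WT (SD, n = 8) and -5.93 ± 0.500 for Het (SD, n = 4). Its difference of -0.08 (95% interval -0.86 to 0.68, exact permutation p = 0.820) took the opposite sign in several alternatives. The share of layer 6 corticothalamic-type nuclei averaged 28.7% ± 9.94 over WT and 20.3% ± 9.16 over Het libraries (exact permutation p = 0.186). Upper-layer-type nuclei met conditions on upper-layer markers that included at least 2 UMIs of Cux2 and Unc5d. They also held no UMI of Fezf2 and at most 1 each of Bcl11b and Hs3st4. Their share averaged 44.7% ± 5.85 over WT and 50.3% ± 8.62 over Het libraries (exact permutation p = 0.226).

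The conditions were set on raw UMIs, so the share was also computed at equal depth. With every nucleus thinned to 1000 UMIs, which left 53494 WT and 37488 Het nuclei, only 11 WT and 5 Het nuclei met the conditions, and the difference among all nuclei was -0.0105 percentage points (exact permutation p = 0.400). Pooled over libraries, as a description without a test, the Het share was then 0.649 times the WT share, against 0.625 times without thinning. Thinned to 1500 UMIs it was 0.741 times, on 20 WT and 10 Het nuclei. With nuclei of 3000 to 6000 UMIs only the difference was -0.114 percentage points (exact permutation p = 0.238) and the pooled ratio 0.827. Without WT M3, the library with the lowest WT share, the difference was -0.0924 percentage points (exact permutation p = 0.00606, adjusted p = 0.0303), and this was the only library whose removal took the adjusted p below 0.05. Without a Het library the test has fewer assignments than without a WT library, so a low adjusted p is harder to reach there.

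**Figure D2:**
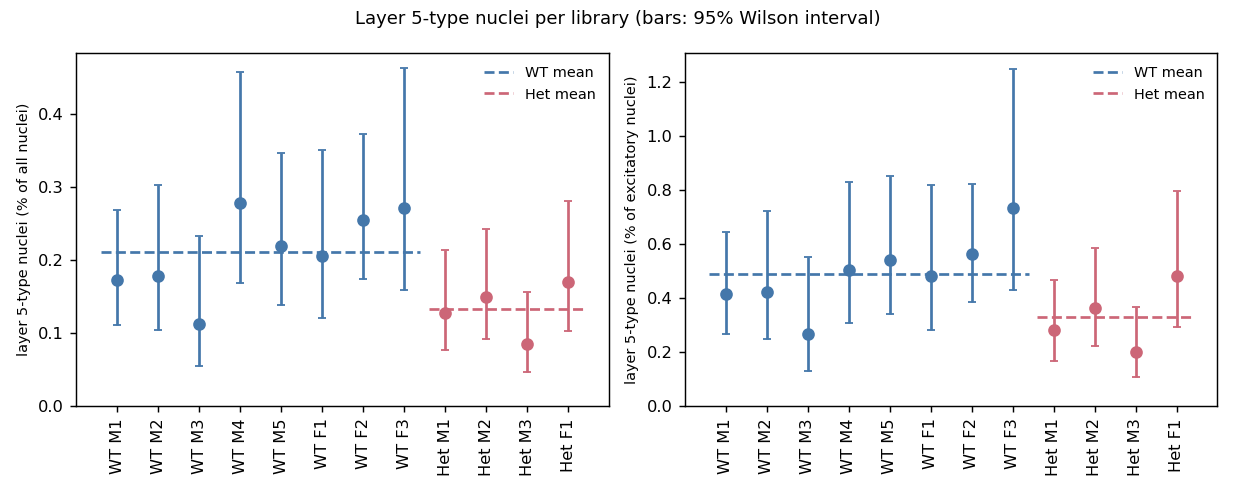
Layer 5-type nuclei as a percentage of all nuclei that passed the filter and of cortical excitatory nuclei, 1 point per library with its 95% Wilson interval. The 4 Het libraries lie between 0.0851% and 0.170% of all nuclei, below the WT median of 0.212%, and their intervals overlap those of WT libraries.

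Myt1l itself was read in every library. In members it stood at 903 to 1633 CPM in WT, with a median of 1218, and at 1025, 1231, 854 and 1743 CPM in Het M1, M2, M3 and F1. The groups overlapped, with a log2 difference of 0.05 (SE 0.20, edgeR adjusted p = 0.963). The frameshift transcript can still be counted, so this level does not check the genotype labels. Myt1l lies at chr12:29528384-29923213 (GRCm38, plus strand) and overlaps genes on the other strand. Members held less Myt1l than other cortical excitatory nuclei in 12 of 12 libraries, at 0.694 times.

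The second comparison asked which genes differed between Het and WT within layer 5-type neurons. UMIs were summed over the members of each library and tested with edgeR's quasi-likelihood test, and calls needed a Benjamini-Hochberg adjusted p under 0.05 and a log2 difference of 0.2 or more on either side. Of 1199 genes tested 4 were called (0.334%), 3 higher in Het (0.25%) and 1 lower (0.0834%). At an unadjusted p under 0.05 there were 123 genes (10.3%), 66 higher (5.5%) and 57 lower (4.75%). In 13 genes (1.08%) the 8 WT and 4 Het libraries did not overlap. The called genes were Robo2, Clstn2 and Sox5, higher in Het, and St6galnac5, lower in Het.

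Robo2 encodes a receptor for Slit proteins that guides axons away from the midline. It stood at 890 to 1686 CPM in WT members, with a median of 1375, and at 2413, 2763, 2275 and 2447 CPM in Het M1, M2, M3 and F1. Every Het library exceeded every WT library. The log2 difference was 0.94 (SE 0.16, edgeR adjusted p = 0.0141). Robo2 lies at chr16:73891839-74411825 (GRCm38, minus strand) and overlaps 5 annotated genes on the same strand and 2 on the other, so its UMIs are uncertain to that extent. Over all members Robo2 stood at 0.750 times its level in other cortical excitatory nuclei.

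Sox5 encodes a transcription factor that times the production of deep-layer neurons and restrains Fezf2 and Bcl11b in layer 6 and subplate neurons. It stood at 1376 to 2356 CPM in WT members, with a median of 2070, and at 4162, 3986, 2894 and 2694 CPM in Het M1, M2, M3 and F1. The groups did not overlap, though Het M3 and F1 were nearer to WT than Het M1 and M2. The log2 difference was 0.81 (SE 0.17, edgeR adjusted p = 0.0275). In all cortical excitatory nuclei Sox5 had the opposite sign, at -0.31 on the log2 scale (edgeR adjusted p = 0.282, not called). Sox5 lies at chr6:143828425-144781977 (GRCm38, minus strand) and overlaps noncoding genes on both strands, so its UMIs are uncertain to that extent.

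Clstn2 encodes calsyntenin 2, a synaptic membrane protein of the cadherin superfamily. It stood at 537 to 1069 CPM in WT members, with a median of 799, and at 1607, 1954, 1339 and 1272 CPM in Het M1, M2, M3 and F1, again without overlap. The log2 difference was 0.96 (SE 0.19, edgeR adjusted p = 0.0192). Clstn2 lies at chr9:97444395-98033181 (GRCm38, minus strand) and overlaps Gm37661 on the same strand and 4921534H16Rik on the other.

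St6galnac5, the gene for a sialyltransferase that builds gangliosides, was the gene called lower. It stood at 277 to 634 CPM in WT members, with a median of 400, and at 48.4, 57.6, 115 and 242 CPM in Het M1, M2, M3 and F1. The highest Het library, F1, stood below the lowest WT library. The log2 difference was -1.84 (SE 0.36, edgeR adjusted p = 0.0192). Its UMIs over all members numbered 249, with as few as 3 in a library. St6galnac5 lies at chr3:152817081-152982246 (GRCm38, minus strand) and overlaps Gm16232 on the same strand and Pigk, with 3 more genes, on the other.

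These calls depended on single libraries and on how members were chosen. Without Het M2 edgeR called 0 genes, while 96 had an unadjusted p under 0.05, and the log2 differences were 0.87 for Robo2, 0.80 for Clstn2, 0.71 for Sox5 and -1.60 for St6galnac5. Without Het M1 it called 2, of which 1 was Robo2. Without the female Het F1 it called 27, with all 4 among them. Robo2 stayed called in 11 of 12 fits that left out 1 library (not without Het M2), Clstn2 and St6galnac5 in 10 of 12 (not without Het M1 or M2) and Sox5 in 9 of 12 (not without Het M1, Het M2 or WT M5). Under the wider condition of 1 UMI each of Fezf2 and Bcl11b, with no UMI needed of Ldb2 or Crym, 0 of 1995 genes were called. Of the 1995 genes 181 had an unadjusted edgeR p under 0.05. There the log2 difference was 0.71 for Robo2 (edgeR adjusted p = 0.0598), 1.00 for Clstn2 (0.0505), 0.50 for Sox5 (0.290) and -1.07 for St6galnac5 (0.270). Among the 144 members without a UMI of Drd1, Drd2, Adora2a, Penk, Rgs9 or Isl1, markers of striatal neurons, edgeR called 5 genes, with Robo2, Clstn2 and Sox5 among them, while St6galnac5 was not called (log2 difference -1.54, edgeR adjusted p = 0.0596). The study's own filter also required log genes divided by log UMIs to reach 0.9. Of all 101802 nuclei 98111 met it, against 98 of the 179 members, 72 from WT and 26 from Het. Over these, 0 of 571 genes were called by edgeR, while 41 had an unadjusted p under 0.05, and the log2 differences were 0.56 for Robo2, 1.03 for Clstn2, 0.75 for Sox5 and -1.95 for St6galnac5 (adjusted p of 0.402 to 0.693). DESeq2 called 10 genes over all members, the 4 among them.

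The genes next by p were not called. Hs3st5, a heparan sulfate sulfotransferase gene, stood at 48.8 to 284 CPM in WT and at 322, 735, 485 and 334 CPM in Het M1, M2, M3 and F1, without overlap (log2 difference 1.58, edgeR adjusted p = 0.0587). Prkg1, a cGMP-dependent kinase gene, stood at 190 to 486 CPM in WT and at 80.6, 86.4, 139 and 223 CPM in Het (log2 difference -1.42, edgeR adjusted p = 0.0587), where only Het F1 reached the WT range. Cntn6, a contactin gene, had 3 male Het libraries above every WT library and the female within the WT range. WT ran from 827 to 1478 CPM and Het stood at 2209, 2780, 3071 and 1018 CPM (log2 difference 0.95, edgeR adjusted p = 0.0745). Tnr, an extracellular matrix gene, had a log2 difference of -1.14 and Bcl11a, a relative of Bcl11b, of 1.06, both with an edgeR adjusted p of 0.109. Het F1 was the only female Het animal, so sex and individual cannot be told apart in it.

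**Figure D3:**
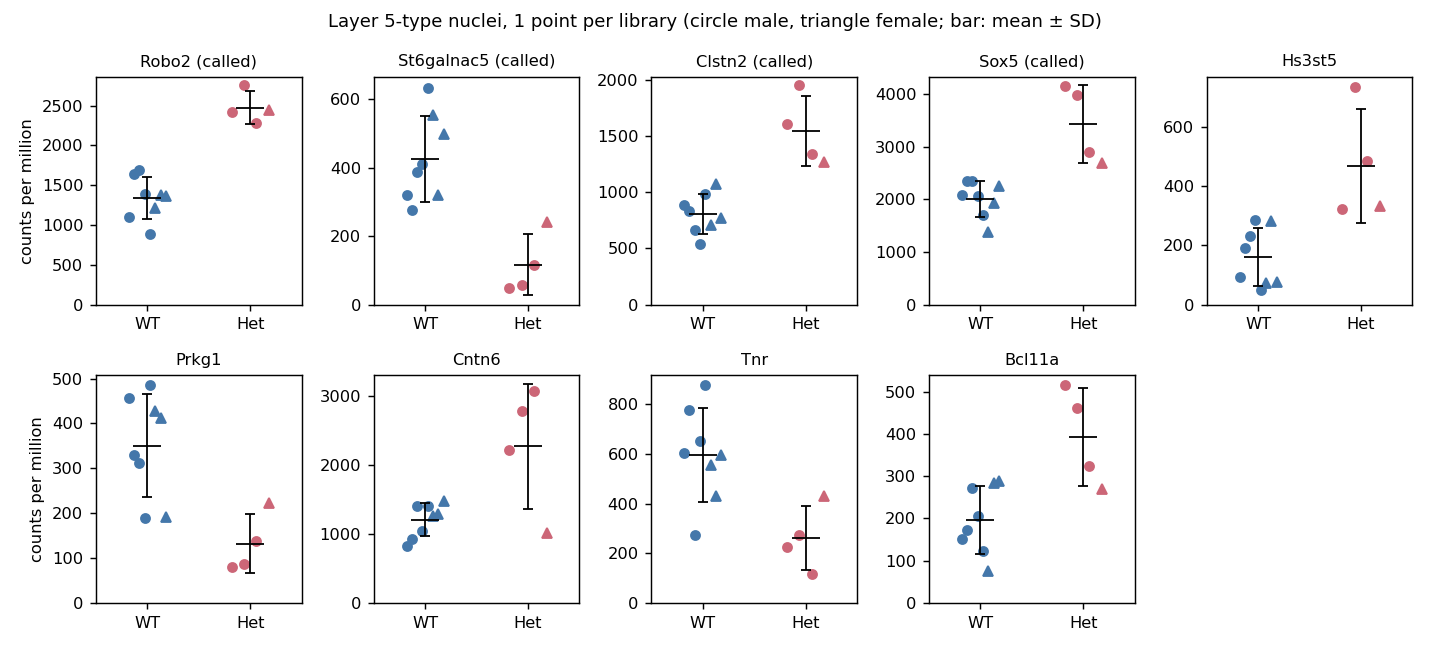
Levels in CPM in layer 5-type nuclei of each library, circles male and triangles female, with mean and SD, for the 4 called genes and those described among the next by p. The 4 called genes and Hs3st5 do not overlap between groups, while the Het female stands within the WT range for Cntn6.

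The condition genes are described without their test result, since members had been chosen on them. Fezf2, Bcl11b and Ldb2 were nevertheless among the 1199 genes tested in members. Fezf2 stood at 220 to 307 CPM in WT members, with a median of 256, and at 274, 259, 300 and 238 CPM in Het M1, M2, M3 and F1. Bcl11b stood at 484 to 920 CPM in WT, with a median of 713, and at 758, 735, 739 and 588 CPM in Het. Ldb2 stood at 1537 to 3771 CPM in WT, with a median of 1949, and at 2464, 3255, 2517 and 2015 CPM in Het. The groups overlapped for all 3 genes.

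Across all cortical excitatory nuclei, chosen on at least 2 UMIs of a set of excitatory markers that included Tbr1, Neurod2, Neurod6 and Slc17a7 and no Gad1 or Gad2, with every member added, 0 of 16379 genes (0.0%) were called by edgeR, while 2178 had an unadjusted p under 0.05 and DESeq2 called 73. Without Het F1 edgeR called 437. Fezf2 had a log2 difference of -0.27 (edgeR adjusted p = 0.531), Bcl11b of -0.24 (edgeR adjusted p = 0.640) and Hs3st4 of -0.59 (edgeR adjusted p = 0.374). Members, chosen on these genes, were in these sums, so the values are not free of the conditions and serve as description. Of the called genes, Robo2 (0.29, edgeR adjusted p = 0.255) and Clstn2 (0.39, edgeR adjusted p = 0.199) had the same sign there, and St6galnac5 (-0.11, edgeR adjusted p = 0.750) stood near 0.

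Gene lists were read by counts beside a median log2 difference of 0.004 over all 1199 genes. Of the layer 5 subcerebral list 7 genes were tested. Sox5 was called, and of the 7 genes 3 had an unadjusted p under 0.05 on the higher side (Sox5, Cntn6 and Ntng1) and 2 on the lower side, Crim1 (log2 difference -0.81) and Cdh13 (-0.66), where over all 1199 genes 5.5% and 4.75% did. The median was 0.02. Ntng1, which also stands on the list of thalamic and other glutamatergic markers as its only tested gene, had a log2 difference of 0.70 (edgeR adjusted p = 0.357).

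Of 8 layer 6 corticothalamic genes tested 0 were called, with a median of -0.15. Lmo3, a LIM-only transcription cofactor, stood at 92.9 to 489 CPM in WT and at 521, 533, 439 and 572 CPM in Het (log2 difference 0.92, edgeR adjusted p = 0.216). Zfpm2, a cofactor of GATA factors, stood at 205 to 901 CPM in WT and at 102, 174, 300.2 and 223 CPM in Het (log2 difference -1.15, edgeR adjusted p = 0.191). Cdh18 had a log2 difference of 0.96 (edgeR adjusted p = 0.327). Of 5 callosal and upper-layer genes tested 0 were called, and Rorb, a nuclear receptor of layer 4, stood at 221 to 502 CPM in WT and at 637, 461, 970 and 382 CPM in Het (log2 difference 0.79, edgeR adjusted p = 0.189). The median of these 5 was 0.24.

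Of 18 axon guidance genes tested Robo2 was called, and 3 others had an unadjusted p under 0.05 on the lower side: Epha5 (log2 difference -0.49) and Epha7 (-0.67), receptors for ephrins, and Slit3 (-0.88), a Robo ligand. The list's median was -0.03. Of 15 glutamate receptor genes 0 were called (median -0.11), and Grm7 had the smallest p (log2 difference 0.42, edgeR adjusted p = 0.446). Of 25 channel genes 0 were called (median -0.03), and the calcium channel subunit gene Cacna2d1 (log2 difference 0.43, edgeR adjusted p = 0.350) was among those at an unadjusted p under 0.05. Of 15 cadherin genes 0 were called (median 0.17).

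No maturation gene was called. Of 7 immature neuron genes tested 0 were called and 0 had an unadjusted p under 0.05, with a median of 0.03 and Stmn2, a microtubule regulator, at -0.21. Of 9 mature neuron genes 0 were called, with a median of 0.10, and 1, Snap25, a vesicle fusion protein, had an unadjusted p under 0.05 (log2 difference -0.61, edgeR adjusted p = 0.327). Of 3 striatal markers 0 were called, with Meis2 at -0.88 (edgeR adjusted p = 0.286). No interneuron, oligodendrocyte lineage, microglia, endothelial or cycling marker passed the filter on low counts. Every other list with a tested gene held 0 called genes, with 1 each tested for the Myt1l family, layer 6b, astroglia, Cajal-Retzius and thalamic lists and 2 for the near-projecting and intratelencephalic list.

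**Figure D4:**
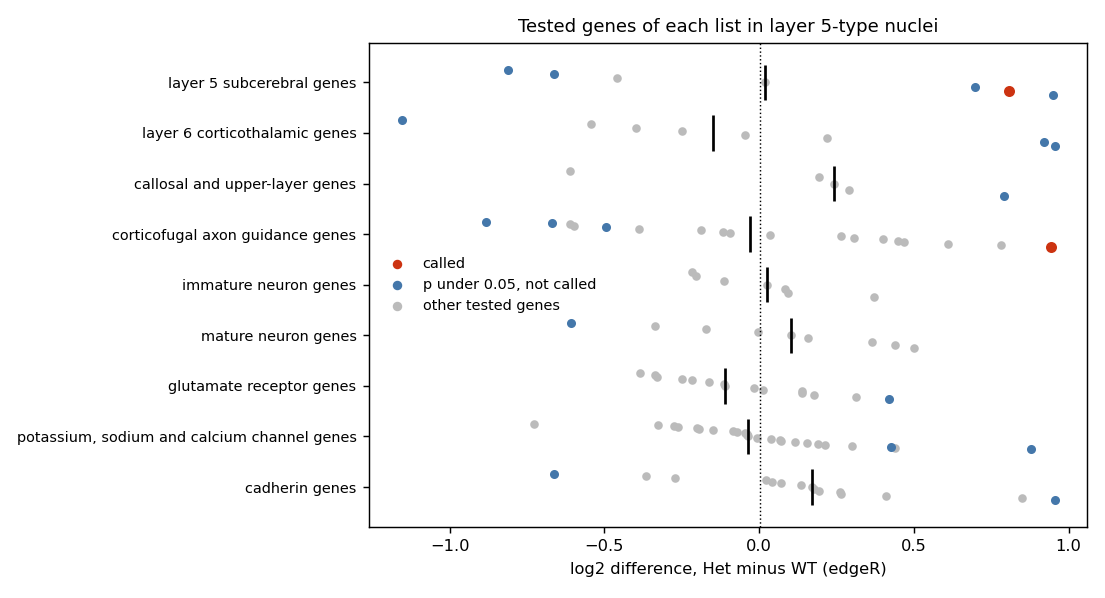
Log2 difference between Het and WT in layer 5-type nuclei (edgeR) for each tested gene of 9 lists, with the list's median as a black bar. Red points are called, blue points have an unadjusted p under 0.05, and the layer 5 subcerebral list has genes on both sides of 0.

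The third comparison asked whether the genotype difference in layer 5-type neurons differed from that in the neighbouring types of the same libraries. In a model over both populations, edgeR called 35 of 9383 genes (0.373%) against layer 6 corticothalamic-type nuclei, 10 with a higher and 25 with a lower difference in layer 5-type nuclei. Against upper-layer-type nuclei it called 23 of 10138 genes (0.227%), 16 with a higher and 7 with a lower difference. Of these tested genes 1199 had passed the filter on low counts in members themselves, and the others entered through the larger sums of the other type. The 1199 held 26 of the 35 and 17 of the 23 called genes. Against layer 6 corticothalamic-type nuclei the count was 8 without Het M1, 11 without Het M2 and 18 without WT M5, and against upper-layer-type nuclei 9 without Het M1 and 5 without Het M2. This model shares its estimate of spread between the small layer 5-type sums and the larger sums of the other type. In a test of within-library differences (limma, 1199 genes), whose spread includes that of the small sums, 0 genes were called against layer 6 corticothalamic-type nuclei (116 at an unadjusted p under 0.05, DESeq2 13) and 2 against upper-layer-type nuclei (110 at an unadjusted p under 0.05). DESeq2 called 0 genes against upper-layer-type nuclei, with 276 at an unadjusted p under 0.05.

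The 2 genes were St6galnac5 and Hs3st5. In the edgeR model St6galnac5 had a difference of differences of -2.04 on the log2 scale against layer 6 corticothalamic-type nuclei (adjusted p = 4.39e-06, limma adjusted p = 0.0547) and of -1.84 against upper-layer-type nuclei (adjusted p = 1.55e-04, limma adjusted p = 0.00212). Hs3st5 had 1.74 (limma adjusted p = 0.0547) and 1.72 (limma adjusted p = 0.0423). In layer 6 corticothalamic-type nuclei St6galnac5 averaged 164 ± 30.1 CPM over WT (SD, n = 8) and 182 ± 23.3 over Het libraries (SD, n = 4), and in upper-layer-type nuclei at 89.2 ± 12.7 and 84.2 ± 30.2 CPM.

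Sox5 differed by 0.96 on the log2 scale against either type in the edgeR model, with limma adjusted p of 0.116 against layer 6 corticothalamic-type and 0.200 against upper-layer-type nuclei. It averaged 3040 ± 371 CPM over WT (SD, n = 8) and 2688 ± 88.4 over Het libraries (SD, n = 4) in layer 6 corticothalamic-type nuclei, the opposite sign to that in members. Robo2 and Clstn2 were higher in Het in all 3 populations by their means, with differences of differences of 0.76 and 0.86 against layer 6 corticothalamic-type nuclei (limma adjusted p = 0.116 for both). Iqcj, a calmodulin-binding motif gene, had -1.82 and Frmpd4, a postsynaptic scaffold gene, 1.23 against layer 6 corticothalamic-type nuclei (limma adjusted p = 0.0547 and 0.116). Htr1f, a serotonin receptor gene with 71 UMIs over all members, had 2.00 there, and Ncam2, an adhesion molecule gene, and Olfm3, an olfactomedin gene with 74 UMIs, had 1.22 and 2.25 against upper-layer-type nuclei (limma adjusted p = 0.395 for Ncam2). Htr1f and Olfm3 had not passed the filter in members and were too low for the limma test, so these values rest on the other type's sums for their place in the test.

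**Figure D5:**
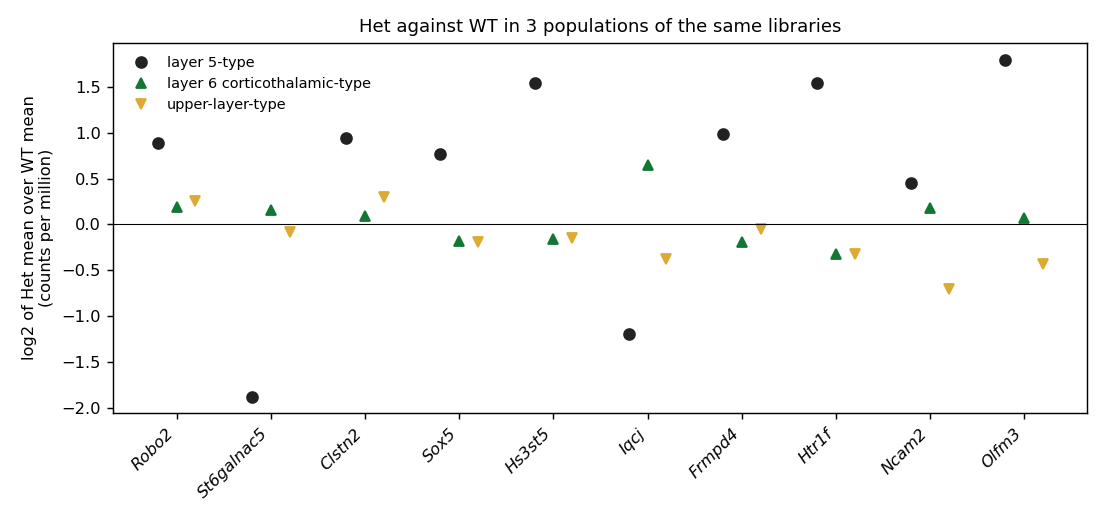
Log2 of the Het mean over the WT mean in CPM for the 4 called genes and the leading genes of both comparisons between populations, in layer 5-type, layer 6 corticothalamic-type and upper-layer-type nuclei. St6galnac5 and Hs3st5 depart from 0 in layer 5-type nuclei and stay near it in the others, while Robo2 and Clstn2 are above 0 in all 3.

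The last comparison asked in how many members a marker was seen at all. Each of 123 WT and 55 Het members with at least 1000 UMIs was thinned to 1000 UMIs, and endothelial-type nuclei, with at least 2 UMIs of Flt1 and Cldn5 together and none of Gad1, Gad2, Neurod2 or Neurod6 (817 with at least 1000 UMIs, unthinned median of 1455 to 2644 UMIs per library) gave a share to set beside that of the members. Foxp2 was seen in 34.3% of thinned members against 14.4% of endothelial-type nuclei, Sox5 in 75.8% against 28.9% and Rorb in 30.3% against 6.36%. Neighbouring types showed these genes as well. Sox5 was seen in 80.5% of thinned layer 6 corticothalamic-type and 54.1% of upper-layer-type nuclei, and Rorb in 13.9% and 28.6%. Tle4 was seen in 6.74% against 13.0%, Etv1 in 3.93% against 4.04% and Cux1 in 4.49% against 25.1%. Thinned upper-layer-type nuclei showed Tle4 in 4.02%, Etv1 in 1.77% and Foxp2 in 6.21%, all below the endothelial shares, and for Cux1 the members themselves lay below endothelium. The endothelial share is therefore not a level of free RNA common to all nuclei for these 4 genes, and the members' shares of them are read neither as background nor as expression. In full counts the share of members was 96.6% for Sox5, 60.9% for Foxp2, 26.3% for Tle4 and 21.8% for Etv1. The endothelial shares in full counts were 44.7%, 25.9%, 23.4% and 8.96%. Tle4 was seen in 67.9% of thinned layer 6 corticothalamic-type nuclei, which were chosen on Tle4 and Foxp2.

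Between genotypes 0 of the 12 marker shares passed the exact permutation test after adjustment, with 1 at an unadjusted p under 0.05. Cdh13, an adhesion molecule of the cadherin family, was seen in 46.2% to 84.6% of thinned members in WT, with a median of 67.5%, and in 35.7%, 18.8%, 40% and 53.3% in Het M1, M2, M3 and F1. The means were 66.2% ± 13.1 (SD, n = 8) and 36.9% ± 14.3 (SD, n = 4), and differed with exact permutation p = 0.00808 (adjusted p = 0.0970). Het F1 lay within the WT range. The share of Sox5 was 69.7% ± 17.0 for WT (SD, n = 8) and 86.3% ± 9.79 for Het (SD, n = 4), with exact permutation p = 0.0848 (adjusted p = 0.424).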

How the data were processed

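Single-nucleus RNA sequencing of P1 forebrain had been made from 12 mice, 8 WT and 4 Het, 1 library per animal. Polyadenylated RNA of nuclei was barcoded by split pooling. The authors mapped reads to mm10, counted with the ScaleRna workflow, called nuclei with CellFinder and used Seurat 4.3.0 downstream, and they deposited expected counts, that is, unnormalized estimated UMI counts per gene and nucleus with a UMI matching more than 1 gene split among its matches. How UMIs were divided and whether counting used strand are not given in the sources used here.

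Barcodes of 800 to 6000 UMIs, 300 to 3000 genes and at most 1% mitochondrial UMIs were kept without the authors' removal of doublets or their ratio of genes to UMIs, both tried as alternatives. Doublets, marked as the 5% of barcodes with the highest simulated-doublet score in each library, were left in. The conditions for members, the comparison populations and all gene lists were chosen with earlier results of these data known, and 4 alternatives (a wider condition, members with excitatory markers, nuclei of 3000 to 6000 UMIs, limma on within-library differences) were added after seeing the data.

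Expected counts were summed per library and population, rounded and tested with edgeR 4.0.16 (R 4.3.3, TMM normalization, filterByExpr, quasi-likelihood test, genotype as the term). Alternatives used DESeq2 1.42.0, limma 3.58.1 with a prior count of 2, other filters, sex as a covariate, males only and the removal of each library. The scripts for these tests were checked on simulated counts. Shares were compared over libraries by a two-sided exact permutation test over 495 assignments (scipy 1.17.1), whose smallest p is 0.00404. Library is the unit throughout, and members of 1 library are not replicates. Positions came from the GENCODE annotation of GRCm38 (mm10), which held 55154 of 55335 gene identifiers.

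Genes were named by this rule: the condition genes and Myt1l, the called genes and the next by p up to 10, up to 4 tested genes per list by p, up to 5 called genes per comparison between populations, 12 marker genes for shares of nuclei, and the 10 genes above 20 CPM in members with the highest ratio to other cortical excitatory nuclei. Some genes that the rule or the population conditions took are not reported here. Other genes of the profile were chosen from the lists after their values were seen. Same-numbered WT and Het libraries of 1 sex share only a number: the correlation of their deviations from group means in excitatory nuclei was -0.0213, 0.0497, 0.0209 and 0.225 over the 4 pairs.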

Additional observations from a re-analysis of the deposited data

Results flagged for a closer look

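Some libraries stood far from the others of their group. In 56 groups of libraries the gap of the highest or lowest value to its neighbour was compared with the range by Dixon's critical value, which chance alone passes in about 1 in 20 groups, and 5 passed. The thinned share of members with a UMI was 10% for Tle4 in Het M3, 7.14% for Tbr1 in Het M1 and 14.3% for Cux1 in Het M1, where the other Het libraries were at 0, so that 1 library above 0 had to pass. It was 25.0% for Tshz2 in WT F3 and 15.4% for Pou3f1 in WT F1. Each of these shares rests on few nuclei, since a library held 7 to 26 members.

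The genotype difference differed between populations by the test of the difference itself in 35 genes against layer 6 corticothalamic-type nuclei and in 23 genes against upper-layer-type nuclei (edgeR), of which 9 and 6 had not passed the filter on low counts in members. With the spread of the small layer 5-type sums in the test (limma), 0 genes (116 at an unadjusted p under 0.05) and 2 genes (St6galnac5 and Hs3st5) passed the threshold.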

How the results depend on the processing

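The share of members among all nuclei was lower in Het in every alternative run, from -0.0924 to -0.0623 percentage points with 1 library left out. It was -0.0137 when thinned to 1500 UMIs and -0.00239 under stricter conditions (6 WT and 4 Het members, exact permutation p = 1.0). The pooled WT share was 0.0493% and 0.0101% in these 2 settings, against 0.208% in the main run. The pooled Het share was 0.741 and 0.939 times that of WT, against 0.625 in the main run. Under the study's filter on the ratio of genes to UMIs the difference was -0.0631 (exact permutation p = 0.0485, adjusted p = 0.182). The pooled Het share was then 0.502 times that of WT, and with excitatory markers required of members it was 0.587 times. Among excitatory nuclei the difference ran from -0.210 to -0.116 with 1 library left out. The layer 6 share ran from -12.7 to -5.75, the upper-layer share from 1.99 to 9.0. The log2 ratio to layer 6 turned to 0.10 under the wider condition, 0.15 in nuclei of 3000 to 6000 UMIs, 0.00820 in males only and 0.0861 with the replicate block, and ran from -0.22 to 0.13 with 1 library left out. It was -0.42 under the study's filter on the ratio of genes to UMIs. No gene test could be fitted under the stricter conditions.

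Called genes in members (4) became 10 with DESeq2, 0 with the ratio of at least 0.9, 24 in males only, 25 without a filter, 0 under the wider condition and 0 to 27 with 1 library left out. In excitatory nuclei (0) they became 73 with DESeq2, 241 in males only, 53 without a filter and 0 to 437 with 1 library left out. Against layer 6 (35) they became 13 with DESeq2, 0 with limma, 4 with the ratio, 22 without a filter and 8 to 47 with 1 library left out. Against upper layers (23) they became 0 with DESeq2 (276 at an unadjusted p under 0.05), 2 with limma, 3 with the ratio, 13 without striatal UMIs and 5 to 33 with 1 library left out. The cause of these changes was not tested. The 12 marker shares gave 0 in each alternative, which says little of their stability. The exact sign-flip test cannot go below p = 0.125, and a left-out library leaves the exact permutation test fewer assignments.

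With the replicate block, over 4 pairs that share only a number (1 of 4 Het libraries correlated best with its own number), 6 genes were called in members, 1 of them (St6galnac5) among the 4, and the log2 differences of Robo2, Clstn2 and Sox5 were 0.87, 1.02 and 0.79. The share difference was -0.0339 percentage points (exact sign-flip p = 0.125, the smallest it can give).

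Of the uncalled genes named by their p, with Myt1l, these changed sign on the log2 scale (genes named only as condition genes, share markers or profile genes are left out). With the replicate block Myt1l was -0.18, Foxp1 0.12, Pde10a -0.0410 and Slc1a3 -0.11. In males only Myt1l was -0.17, Stmn2 0.11, Tubb2b 0.0803, Foxp1 0.0884 and Pde10a -0.21. Under the wider condition Zfpm2 was 0.13, Foxp1 0.21 and Pde10a -0.0778. With the ratio Myt1l was -0.13, Kcnma1 -0.0612 and Cacna2d3 0.27. Without striatal UMIs Myt1l was -0.0633 and Foxp1 0.0342. Without a filter Pde10a was -0.0442, with sex as a covariate Foxp1 was 0.00275, and without doublets Pde10a was -0.00726. With 1 library left out Myt1l ran from -0.16 to 0.17, Foxp1 from -0.0830 to 0.0425, Pde10a from -0.26 to 0.15, Il1rapl2 from -0.0592 to 0.68, Tmem163 from -0.10 to 0.72, Dpysl3 from -0.0246 to 0.15 and Tubb2b from -0.39 to 0.0806.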
